A study of Homo sapiens with 6 samples.

Results

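The genes described here are 34 genes of glycolysis and of the response to low oxygen, chosen by name, in 2 human cancer cell lines that were adapted stepwise to a targeted inhibitor. They comprise 15 genes of glycolytic enzymes, 6 genes that handle lactate, glucose and other monocarboxylates, 4 regulators of glycolytic flux, 8 targets of hypoxia-inducible factor and HIF1A itself. All 34 were present among the 14711 genes common to both count tables. A level of at least 10 UMIs (unique molecular identifiers, each standing for a counted transcript) per 1000000 UMIs of a population (CPM) in at least 1 population was reached by 31 of them in A375 and by 30 in PC9. In A375 all 15 enzyme genes and 6 of the 8 hypoxia targets reached it, and SLC16A3, CA9 and EGLN3 did not. In PC9 14 enzyme genes and 6 hypoxia targets reached it, and ALDOC, PFKFB4, CA9 and ANKRD37 did not. The members nearest the limit were ENO2 (10.2 CPM at its highest) above it and EGLN3 (8.33 CPM) below it in A375, and PFKM (11.3 CPM) above it and ANKRD37 (9.67 CPM) below it in PC9. In all, 10421 of 15945 genes in A375 and 9990 of 15429 genes in PC9 reached this level.

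A375 came from a melanoma that carries a BRAF mutation, and PC9 came from an adenocarcinoma of the lung that carries an EGFR mutation. For A375 there were 8 populations adapted to the BRAF inhibitor dabrafenib (30, 60, 125, 250 or 500 nM, or 1, 2 or 4 µM) and an untreated one. For PC9 there were 8 populations adapted to the EGFR inhibitor osimertinib (8, 16, 32, 75, 150, 300 or 600 nM, or 1.2 µM), persisters left after 9 days in 1.2 µM with no stepwise adaptation, and an untreated population. Because each population was 1 culture, no difference could be tested; ranges after a value are exact 95% limits and hold counting error alone. All comparisons within a line share the same untreated cells. All cells of a line were tagged and pooled before sequencing, and the A375 pool was sequenced in 2 runs that the cell names do not tell apart. A375 was grown in DMEM and PC9 in RPMI-1640, both with 10% serum, so line, medium and pool cannot be told apart.

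The tables held 8505 A375 cells with 2938641 to 21976644 UMIs per population and 11258 PC9 cells with 4908228 to 10552237. The A375 population adapted to 125 nM was the smallest, with 379 cells. The median share of mitochondrial UMIs was 5.22% to 7.67% in A375 populations and 7.42% to 8.55% in PC9 populations. Of 8 melanoma markers 6 reached 10 CPM in A375, with a summed level of 237 to 959 CPM, but PMEL and MLANA stayed at or below 4.4 and 1.9 CPM. All 8 lung epithelial markers reached 10 CPM in PC9, with a summed level of 9364 to 11312 CPM. The same lung epithelial list summed to 312 to 1042 CPM in A375, mostly KRT18 with up to 895 CPM, and the melanoma list to 59.3 to 121 CPM in PC9, mostly MITF with up to 83.5 CPM. Immune markers summed to at most 4.95 CPM and endothelial markers to at most 7.54 CPM in any population, and no erythroid marker was in either table. Fibroblast markers summed to at most 17.3 CPM, with DCN at 12.3 CPM in A375 cells at 30 nM. The tables shared 27 cell barcodes.

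Glycolysis splits glucose into pyruvate in the cytosol. Hexokinases trap glucose, phosphofructokinase commits it, aldolase and triosephosphate isomerase make triose phosphates, and GAPDH, phosphoglycerate kinase, phosphoglycerate mutase, enolase and pyruvate kinase turn these into pyruvate. Lactate dehydrogenase then makes lactate, or pyruvate enters mitochondria through pyruvate dehydrogenase, which the PDK kinases switch off. HIF-1, a pair of the oxygen-regulated HIF1A protein and ARNT, binds the core sequences ACGTG and GCGTG and raises many of these genes in low oxygen. BRAF and EGFR signalling is known to raise glycolysis in tumours that depend on it. HIF1A is controlled mainly at the protein level, which RNA counts do not measure.

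The promoters below show 6 members: PFKFB4, ANKRD37 and HK2, which were above the untreated level from 60 to 250 nM dabrafenib, EGLN3 and PDK1, which were past 2-fold at every osimertinib dose, and PGK1, a textbook HIF target that stayed within 2-fold of untreated cells in every population. Each runs from 250 bases before to 50 bases after the first-listed RefSeq start site in GRCh38.p14, 5′ to 3′ on the gene's strand. Capitals mark ACGTG or GCGTG on either strand (CACGT or CACGC as read), and the palindrome CACGTG in ANKRD37 counts as overlapping matches on both strands.
PFKFB4 (chr3:48556754-48557053, minus strand): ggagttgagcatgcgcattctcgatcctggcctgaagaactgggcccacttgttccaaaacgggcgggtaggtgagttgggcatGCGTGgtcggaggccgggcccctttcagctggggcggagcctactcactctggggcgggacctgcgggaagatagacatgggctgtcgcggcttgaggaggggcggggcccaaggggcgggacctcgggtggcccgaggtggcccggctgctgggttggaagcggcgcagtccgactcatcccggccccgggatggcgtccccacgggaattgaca
ANKRD37 (chr4:185396591-185396890, plus strand): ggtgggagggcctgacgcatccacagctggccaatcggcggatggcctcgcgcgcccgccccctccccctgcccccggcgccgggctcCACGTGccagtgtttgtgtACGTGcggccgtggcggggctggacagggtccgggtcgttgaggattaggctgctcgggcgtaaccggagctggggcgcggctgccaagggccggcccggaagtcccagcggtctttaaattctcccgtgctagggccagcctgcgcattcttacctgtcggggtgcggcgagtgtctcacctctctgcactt
HK2 (chr2:74833877-74834176, plus strand): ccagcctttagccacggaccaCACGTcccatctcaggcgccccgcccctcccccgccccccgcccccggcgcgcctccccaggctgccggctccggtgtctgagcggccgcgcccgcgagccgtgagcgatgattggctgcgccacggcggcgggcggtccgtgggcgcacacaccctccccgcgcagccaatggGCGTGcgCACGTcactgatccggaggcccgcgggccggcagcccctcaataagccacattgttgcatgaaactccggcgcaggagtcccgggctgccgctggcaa
EGLN3 (chr14:33951025-33951324, minus strand): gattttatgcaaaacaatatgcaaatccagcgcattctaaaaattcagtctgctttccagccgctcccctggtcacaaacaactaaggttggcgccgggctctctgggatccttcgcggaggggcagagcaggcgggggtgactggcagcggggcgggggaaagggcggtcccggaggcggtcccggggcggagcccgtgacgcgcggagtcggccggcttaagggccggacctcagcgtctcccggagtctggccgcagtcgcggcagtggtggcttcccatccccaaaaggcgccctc
PDK1 (chr2:172555123-172555422, plus strand): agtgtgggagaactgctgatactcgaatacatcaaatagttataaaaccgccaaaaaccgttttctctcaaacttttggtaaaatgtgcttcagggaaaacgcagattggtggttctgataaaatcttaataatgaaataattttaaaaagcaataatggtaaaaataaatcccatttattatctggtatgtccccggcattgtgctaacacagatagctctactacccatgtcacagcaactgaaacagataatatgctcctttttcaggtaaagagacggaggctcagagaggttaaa
PGK1 (chrX:78103998-78104297, plus strand): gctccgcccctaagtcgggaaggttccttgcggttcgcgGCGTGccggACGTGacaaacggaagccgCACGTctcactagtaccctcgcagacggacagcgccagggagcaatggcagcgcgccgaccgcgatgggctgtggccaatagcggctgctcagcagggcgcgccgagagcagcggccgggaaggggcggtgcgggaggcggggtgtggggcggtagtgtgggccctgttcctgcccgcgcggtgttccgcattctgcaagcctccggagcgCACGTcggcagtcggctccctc
PFKFB4 had 1 match, ANKRD37 and HK2 had 3 each and PGK1 had 4. EGLN3 and PDK1 had 0 in these windows, and the other listed start site of PDK1 had 2. At least 1 match lay in the first-listed promoter of 22 of the 30 members in the RefSeq table (73.3%), where 48.4% of all 27305 genes' first-listed promoters held one. The members were chosen by name and many are known HIF targets, so setting these shares side by side is no test of enrichment. A match describes the letters only, and an absent match says nothing about sequence outside the window. NDRG1, SLC16A1, SLC2A3 and VEGFA are named only.

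A member was counted as different when its CPM was at least 2-fold higher or lower and it had 10 CPM and 20 UMIs in the higher population. By this rule 8 members differed from untreated cells in at least 1 A375 population and 8 in at least 1 PC9 population. This was 25.8% of the 31 members measured in A375, beside 26.4% of all measured genes, and 26.7% of the 30 in PC9, beside 26.4%, so the members differed about as often as genes in general. HK2, SLC2A3 and ADM did so in both lines. In A375 the others were ANKRD37, NDRG1, PFKFB3, PFKFB4 and PKM, and in PC9 they were EGLN3, ENO1, PDK1, PDK3 and PGAM1. Apart from HK2, and PKM at 125 nM dabrafenib, no enzyme gene met this rule at an adapted dose of either line. ENO2, with 4.32 CPM at 4 µM dabrafenib, against 8.87 CPM in untreated cells, was under the 10 CPM minimum.

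**Figure D1:**
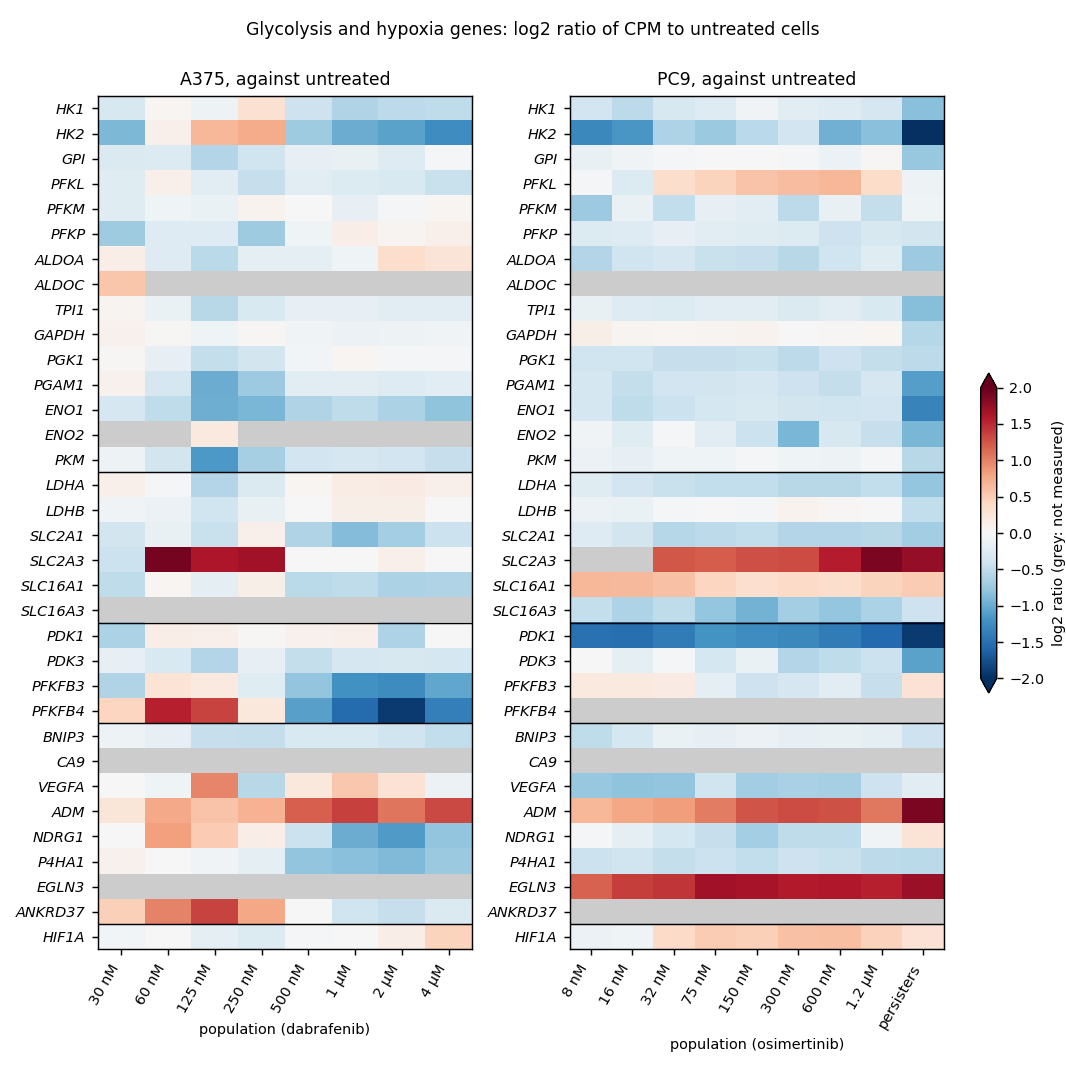
Log2 ratio of CPM to untreated cells for all 34 members (rows, by role) in each treated population (columns) of A375 and PC9. Red is higher and blue lower than untreated, colours end at -2 and 2, and grey marks pairs under 10 CPM or 20 UMIs. SLC2A3 and PFKFB4 are high at 60 to 125 nM dabrafenib, EGLN3 is high and PDK1 low at every osimertinib dose, and the enzyme rows are bluest in persisters.

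In A375 SLC2A3 and PFKFB4 were past 2-fold higher at middle dabrafenib doses and near or below the untreated level at high doses. SLC2A3, the glucose transporter GLUT3 (chr12:7919230-7936275, minus strand, GRCh38), had 41.1 CPM in untreated cells, 30.4 with 30 nM, 155 with 60 nM, 126 with 125 nM, 132 with 250 nM, and 40.8 to 44.3 from 500 nM to 4 µM. It was 3.76-fold higher at 60 nM than in untreated cells (3.48 to 4.07), 3.06-fold higher at 125 nM (2.70 to 3.45) and 3.21-fold higher at 250 nM (2.93 to 3.51). The high values were thus at 3 neighbouring doses of the 8, and the 4 highest doses stood near the untreated level. SLC2A1, the transporter GLUT1 that many cells use for basal uptake, had 49.2 CPM in untreated cells, 38.2 with 30 nM, 44.5 with 60 nM, 36.1 with 125 nM, 52.9 with 250 nM, 32.5 with 500 nM, 27.1 with 1 µM, 30.8 with 2 µM and 36.5 with 4 µM.

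As a share of the UMIs of both transporters, SLC2A3 made up 45.5% in untreated A375 cells (43.3% to 47.7%), 44.3% with 30 nM, 77.7% with 60 nM, 77.7% with 125 nM, 71.3% with 250 nM and 52.8% with 4 µM (48.7% to 56.9%). In PC9 the share was 3.13% in untreated cells (2.31% to 4.14%), 6.99% at 8 nM and 14.8% at 1.2 µM (12.4% to 17.4%). It was 15.1% in persisters (12.0% to 18.5%). These intervals are exact binomial ones. Both lines thus carried a larger SLC2A3 share under drug at some doses, but A375 returned towards its untreated share while PC9 had its highest adapted share at the top dose.

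**Figure D2:**
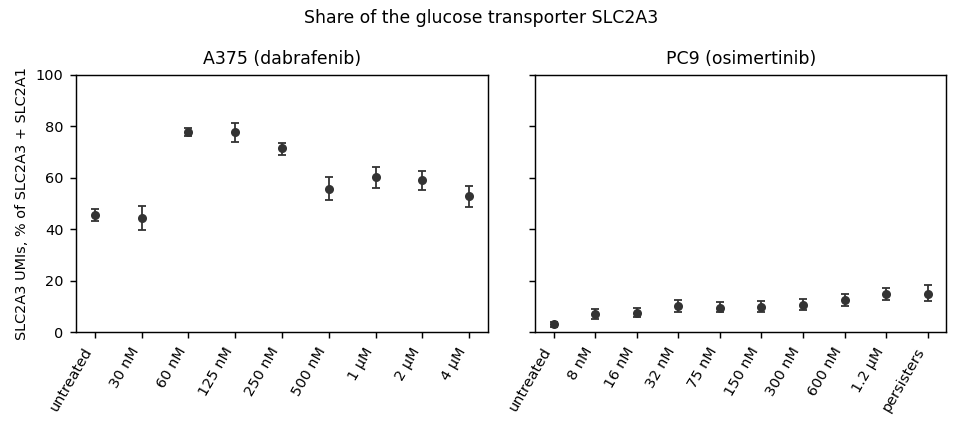
SLC2A3 UMIs as a percent of SLC2A3 plus SLC2A1 UMIs (y axis) in each population of A375 and PC9 (x axis), with exact 95% binomial intervals that cover counting error only. The A375 points at 60, 125 and 250 nM lie above 70%, and all PC9 points lie below 16%.

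PFKFB4, a kinase that makes fructose-2,6-bisphosphate, the activator of phosphofructokinase, was high at the lower of these doses and below the untreated level from 500 nM on. It had 45.5 CPM in untreated cells, 61.5 with 30 nM, 134 with 60 nM, 116 with 125 nM, 52.6 with 250 nM, 21.3 with 500 nM, 15.7 with 1 µM, 12.1 with 2 µM and 17.5 with 4 µM. This made it 2.95-fold higher at 60 nM (2.73 to 3.19) and 3.76-fold lower at 2 µM (3.08 to 4.64) than untreated cells. PFKFB3, the sister kinase that strongly favours synthesis of the activator, had 43.5 CPM in untreated cells, 28.5 with 30 nM, 52.3 with 60 nM, 49.7 with 125 nM, 36.8 with 250 nM, 25.1 with 500 nM, 18.7 with 1 µM, 18.1 with 2 µM and 21.2 with 4 µM. It was 2.33-fold lower at 1 µM (1.97 to 2.75). PFKFB4 was 51.1% of the UMIs of this pair in untreated cells, 72.0% at 60 nM and 45.3% at 4 µM.

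PFKFB4 overlaps UCN2 on the same strand in GENCODE v29, and reads of the pair may be split. UCN2 had 8.37 CPM in untreated cells, 16.0 at 60 nM and 1.44 at 4 µM, so both were higher at 60 nM and lower at 4 µM.

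HK2, the inducible hexokinase of tumours, had 29.1 CPM in untreated A375 cells, 15.5 with 30 nM, 31.3 with 60 nM, 45.9 with 125 nM, 48.7 with 250 nM, 17.8 with 500 nM, 14.6 with 1 µM, 13.8 with 2 µM and 12.3 with 4 µM. It stayed under 2-fold at 250 nM (1.67-fold higher, 1.47 to 1.90) and was 2.37-fold lower at 4 µM (1.90 to 2.97). With 5 CPM added to both levels, the log2 ratio of HK2 at 4 µM was -0.98, just under 2-fold. HK1, the constitutive hexokinase, had 77.0 CPM in untreated cells and 54.1 CPM at 4 µM. The HK2 share of both was 27.4% in untreated cells, 38.9% at 125 nM and 18.5% at 4 µM.

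ANKRD37, an ankyrin repeat protein known as a HIF-1 target, had 20.9 CPM in untreated cells, 28.9 with 30 nM, 41.8 with 60 nM, 53.1 with 125 nM, 35.8 with 250 nM, 20.8 with 500 nM, 15.8 with 1 µM, 15.2 with 2 µM and 17.2 with 4 µM. It was 2.54-fold higher at 125 nM (2.11 to 3.05). NDRG1, a stress-induced differentiation gene, had 16.1 CPM in untreated cells, 16.0 with 30 nM, 28.3 with 60 nM, 22.8 with 125 nM, 17.6 with 250 nM, 12.0 with 500 nM, 8.05 with 1 µM, 7.30 with 2 µM and 9.30 with 4 µM. It was 2.20-fold lower at 2 µM (1.68 to 2.92), and ANKRD37 at 60 nM lay just under the limit with 2.00-fold (1.77 to 2.26). P4HA1, a collagen prolyl hydroxylase subunit, lay between 54.1 and 65.7 CPM up to 250 nM and between 33.7 and 36.9 CPM from 500 nM on, which is under 2-fold. VEGFA, the vascular growth factor, was highest at 125 nM with 52.4 CPM, against 26.8 CPM in untreated cells (1.96-fold, 1.63 to 2.34).

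ADM, which encodes the vasodilator peptide adrenomedullin, took another course. It had 12.8 CPM in untreated cells, 15.3 with 30 nM, 21.7 with 60 nM, 19.1 with 125 nM, 20.7 with 250 nM, 29.2 with 500 nM, 33.1 with 1 µM, 27.0 with 2 µM and 31.9 with 4 µM. It was above untreated cells at all 8 doses and past 2-fold at the 4 highest, with 2.49-fold at 4 µM (2.09 to 2.97). Of the measured hypoxia targets in A375, ADM was the only one past 2-fold at 500 nM and above in the higher direction.

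**Figure D3:**
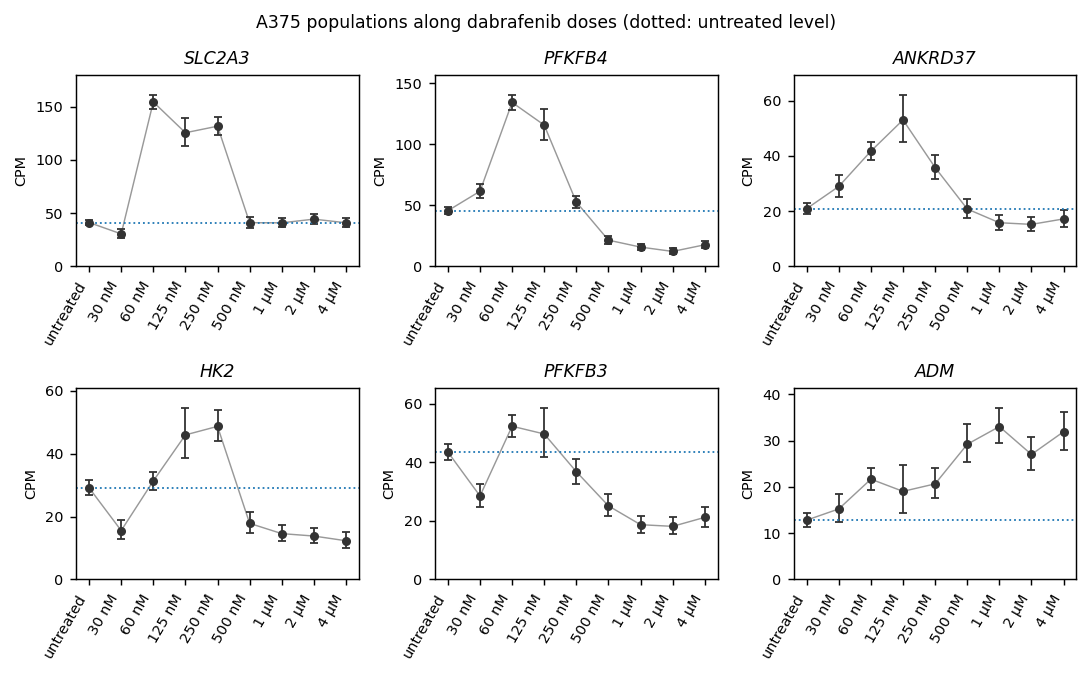
CPM (y axis, from 0) of 6 members in untreated and dabrafenib-adapted A375 cells (x axis, by dose), with exact 95% Poisson intervals and a dotted line at the untreated level. SLC2A3, PFKFB4 and ANKRD37 are highest between 60 and 125 nM, HK2 at 250 nM, and ADM is highest at 1 µM.

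Counted over all members in A375, 0 of 30 measured were 2-fold higher or lower at 30 nM, where 4.44% of all measured genes were higher and 5.58% lower. At 60 nM 2 of 29 were higher and 0 lower, beside 1.81% and 1.46% of all genes. At 125 nM 3 of 30 were higher and 1 lower (4.19% and 6.97% of all genes), and at 250 nM 1 of 29 was higher and 0 lower (4.19% and 6.01%). Of 29 measured members, 1 was higher and 1 lower at 500 nM (4.82% and 7.37% of all genes), 1 higher and 2 lower at 1 µM (5.1% and 9.33%), 1 higher and 4 lower at 2 µM (5.48% and 10.5%) and 1 higher and 3 lower at 4 µM (5.97% and 9.45%). The members lower at 4 µM were HK2, PFKFB3 and PFKFB4, of which PFKFB3 was within 2-fold under TMM scaling (log2 ratio -0.94). S-phase genes summed to 322 CPM at 4 µM, against 1013 CPM in untreated cells, and 10.6% of cells at 4 µM had 20% or more mitochondrial UMIs, against 0.796% of untreated cells. Without the cells of 20% or more, the log2 ratios at 4 µM were -1.21 for HK2, -1.06 for PFKFB3 and -1.38 for PFKFB4. In the cells that the authors' cell table lists, with fewer S-phase UMIs, they were -1.78, -1.26 and -2.26 in that order. S-phase sums of these listed cells were 135 CPM at 4 µM and 255 CPM in untreated cells, so S phase was not held equal. The shares among members were close to those of all genes at the highest doses. All genes had a median log2 ratio of -0.17 at 4 µM. Median-of-ratios scaling put it at -0.03, with 7.21% of genes higher and 7.47% lower. Beside the all-gene median of -0.17, the 13 measured enzyme genes at 4 µM had a median log2 ratio of -0.21, the 6 measured hypoxia targets -0.38 and the 4 regulators -0.69.

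Within the population adapted to 60 nM, the authors' cell table placed most listed cells in 3 clusters, and these differed in the same members. Clusters rest on the cells' own expression, so these values are descriptions. SLC2A3 had 325 CPM in the 409 cells of cluster 1, 37.7 CPM in the 260 cells of cluster 3 and 45.1 CPM in the 126 cells of cluster 4. PFKFB4 had 211, 116 and 15.7 CPM in these clusters in that order, and HK2 had 45.1, 10.7 and 1.96 CPM. NDRG1 had 41.1, 13.2 and 20.6 CPM. The summed level of a population therefore covers cells of unlike levels, and a change in the share of such cells and a change within them cannot be told apart from the sum. In cluster 1 cells, SLC2A3 had 170 CPM at 125 nM, and untreated cells of cluster 0 had 54.5 CPM.

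Of the enzyme genes of A375, 12 of 14 measured at 125 nM were below the untreated level with a median log2 ratio of -0.37 beside -0.09 for all genes. GAPDH, the triose phosphate dehydrogenase, had 3981 CPM in untreated cells, 4247 with 30 nM, 4068 with 60 nM, 3746 with 125 nM, 4057 with 250 nM, 3773 with 500 nM, 3674 with 1 µM, 3691 with 2 µM and 3779 with 4 µM. PKM, a pyruvate kinase gene, had 943 CPM in untreated cells, 882 with 30 nM, 734 with 60 nM, 426 with 125 nM, 597 with 250 nM, 725 with 500 nM, 746 with 1 µM, 723 with 2 µM and 687 with 4 µM. It was 2.21-fold lower at 125 nM (2.09 to 2.34). ENO1, enolase, was 1.97-fold lower there (525 CPM at 125 nM, against 1034 CPM in untreated cells), and PGAM1, phosphoglycerate mutase, 1.98-fold lower (200.1 against 396 CPM). The 15 enzyme genes together summed to 7769 CPM in untreated cells, 5940 CPM at 125 nM and 6658 CPM at 4 µM. GAPDH alone made up 3981, 3746 and 3779 CPM of these sums in that order.

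S-phase genes moved with the enzymes at 125 nM, and their part in the result was not tested. The 12 S-phase genes summed to 183 CPM at 125 nM, against 1013 CPM in untreated cells. Of the cells at 125 nM 8.71% had 20% or more mitochondrial UMIs, against 0.796% of untreated cells. Among the cells listed in the authors' cell table, which had lower S-phase levels, PKM had 415 CPM at 125 nM and 878 CPM in untreated cells. The enzyme sum was 5930 CPM and 7699 CPM in these groups. S-phase sums of these listed cells were 123 CPM at 125 nM and 255 CPM in untreated cells, so S phase was not held equal.

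LDHA, the muscle-type subunit, had 715 CPM in untreated cells, 764 with 30 nM, 700 with 60 nM, 475 with 125 nM, 586 with 250 nM, 737 with 500 nM, 794 with 1 µM, 800 with 2 µM and 769 with 4 µM. Its share of LDHA plus LDHB UMIs ranged from 40.5% to 46.4% over the 9 populations, with 43.6% in untreated cells. SLC16A1, the lactate transporter MCT1, had 127 CPM in untreated cells and 82.1 to 138 CPM at the doses. BNIP3, a mitophagy receptor, ranged from 90.1 to 126 CPM with its highest level in untreated cells.

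HIF1A had 219 CPM in untreated A375 cells, 211 with 30 nM, 219 with 60 nM, 194 with 125 nM, 182 with 250 nM, 215 with 500 nM, 220 with 1 µM, 241 with 2 µM and 298 with 4 µM. The middle doses at which SLC2A3 and PFKFB4 were high thus had HIF1A RNA near or below the untreated level. Among other HIF subunits and oxygen sensors, 1 of 10 measured was higher and 1 lower at 4 µM, beside 5.97% and 9.45% of all genes. EPAS1, the HIF-2 alpha subunit, had 3.91 CPM in untreated cells and 27.9 at 4 µM, and ARNT2, a partner subunit, had 39.6 CPM in untreated cells and 8.25 at 4 µM. CITED2, which competes with HIF1A for its coactivators, was highest at 30 nM with 57.3 CPM, against 17.2 CPM in untreated cells.

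Other HIF targets, from a list of 40 genes, gave 2 of 26 measured higher and 2 lower at 4 µM (5.97% and 9.45% of all genes), and 0 of 25 higher and 1 lower at 30 nM (4.44% and 5.58%). These counts are near the shares of all genes. RORA, a nuclear receptor, had 141 CPM at 4 µM, against 60.4 CPM in untreated cells, and STC2, a stanniocalcin, had 15.7 against 5.05 CPM. AK4, a mitochondrial adenylate kinase, had 17.9 CPM at 4 µM and 16.4 CPM at 30 nM, against 45.9 CPM in untreated cells, and MT2A, a metallothionein, had 164 CPM at 4 µM, against 386 CPM. KDM3A, a histone demethylase, had 124 CPM at 250 nM, against 44.4 CPM in untreated cells, MXI1, a MYC antagonist, 165 against 57.1 CPM, and BHLHE40, a transcriptional repressor, 56.3 against 27.4 CPM. At 125 nM these 3 genes had 98.0, 123 and 88.8 CPM in that order. They were chosen after their values were seen, and no count of the list is given for these doses. Of all genes, 4.19% were higher and 6.01% lower at 250 nM, and 4.19% and 6.97% at 125 nM. The 3 genes therefore do not describe the list at these doses.

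In PC9 PDK1, HK2 and EGLN3 were past 2-fold at the lowest dose already, and most enzyme genes stayed within 2-fold in adapted cells. PDK1, the kinase that turns off pyruvate dehydrogenase, had 61.7 CPM in untreated cells, 22.0 with 8 nM, 21.7 with 16 nM, 23.5 with 32 nM, 27.0 with 75 nM, 26.2 with 150 nM, 25.2 with 300 nM, 23.5 with 600 nM and 21.1 with 1.2 µM. It was past 2-fold lower at all 8 adapted doses, by 2.81-fold at 8 nM (2.34 to 3.39) and by 2.93-fold at 1.2 µM (2.45 to 3.51). In persisters it had 16.3 CPM, against 61.7 CPM in untreated cells, 3.79-fold lower (3.0 to 4.84). The step lay between untreated cells and the lowest dose, and the adapted populations lay between 21.1 and 27.0 CPM.

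EGLN3, an oxygen-sensing prolyl hydroxylase that marks HIF for destruction and is itself a HIF target, went the other way. It had 29.4 CPM in untreated cells, 66.9 with 8 nM, 76.2 with 16 nM, 78.8 with 32 nM, 93.6 with 75 nM, 92.2 with 150 nM, 88.0 with 300 nM, 88.9 with 600 nM and 86.1 with 1.2 µM. It was 2.28-fold higher at 8 nM (1.96 to 2.64) and 2.93-fold higher at 1.2 µM (2.55 to 3.37). At 8 nM listed cells alone gave a log2 ratio of 0.91, just under 2-fold. Persisters had 96.8 CPM, against 29.4 CPM in untreated cells, 3.29-fold higher (2.85 to 3.81). In A375 EGLN3 stayed under 10 CPM but was above untreated cells at all 8 doses, with 8.33 CPM at 500 nM, against 2.73 CPM in untreated cells (3.05-fold, 2.09 to 4.46).

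SLC2A3 had 4.45 CPM in untreated PC9 cells, 8.67 with 8 nM, 8.65 with 16 nM, 10.5 with 32 nM, 10.3 with 75 nM, 10.9 with 150 nM, 11.0 with 300 nM, 13.2 with 600 nM and 16.4 with 1.2 µM. It was 3.67-fold higher at 1.2 µM than in untreated cells (2.60 to 5.26), at a level still far under that of A375 cells. Persisters had 15.1 CPM, against 4.45 CPM in untreated cells. SLC2A1 had 138 CPM in untreated cells, 115 with 8 nM, 106 with 16 nM, 93.2 with 32 nM, 95.7 with 75 nM, 98.5 with 150 nM, 92.3 with 300 nM, 92.2 with 600 nM and 94.3 with 1.2 µM. In persisters it had 85.0 CPM, against 138 CPM in untreated cells, which is under 2-fold.

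ADM had 7.49 CPM in untreated PC9 cells, 11.9 with 8 nM, 12.8 with 16 nM, 13.3 with 32 nM, 15.3 with 75 nM, 17.8 with 150 nM, 18.6 with 300 nM, 18.0 with 600 nM and 15.5 with 1.2 µM. It was past 2-fold from 75 nM on, with 2.08-fold at 1.2 µM (1.55 to 2.80), where listed cells alone, TMM and median-of-ratios scaling gave log2 ratios of 0.75, 0.97 and 0.98, under 2-fold. Persisters had 27.7 CPM, against 7.49 CPM in untreated cells, 3.70-fold higher (2.78 to 4.95). ADM was above the untreated level at all 8 adapted doses of both lines.

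LDHA had 939 CPM in untreated PC9 cells, 792 with 8 nM, 717 with 16 nM, 692 with 32 nM, 669 with 75 nM, 666 with 150 nM, 639 with 300 nM, 636 with 600 nM and 667 with 1.2 µM. It was 1.41-fold lower at 1.2 µM (1.36 to 1.46), and in persisters it had 548 CPM, against 939 CPM in untreated cells, 1.71-fold lower (1.64 to 1.79). Its share of LDHA plus LDHB UMIs was 56.5% in untreated cells (55.7% to 57.2%), 54.4% with 8 nM, 45.6% with 300 nM and 48.2% with 1.2 µM (47.2% to 49.1%). It was 51.7% in persisters (50.3% to 53.0%), so the share of LDHA was below that of untreated cells in persisters and at these doses. SLC16A3, the lactate exporter MCT4, had 34.1 CPM in untreated cells and 17.7 to 24.5 CPM at the doses, while SLC16A1 had 88.5 CPM and 112 to 141 CPM. All these differences were under 2-fold.

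HIF1A had 171 CPM in untreated PC9 cells, 157 with 8 nM, 161 with 16 nM, 224 with 32 nM, 243 with 75 nM, 239 with 150 nM, 256 with 300 nM, 258 with 600 nM and 235 with 1.2 µM. Persisters had 209 CPM, against 171 CPM in untreated cells. The level was thus 1.38-fold higher at 1.2 µM than in untreated cells (1.29 to 1.47), and the higher values began at 32 nM.

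**Figure D4:**
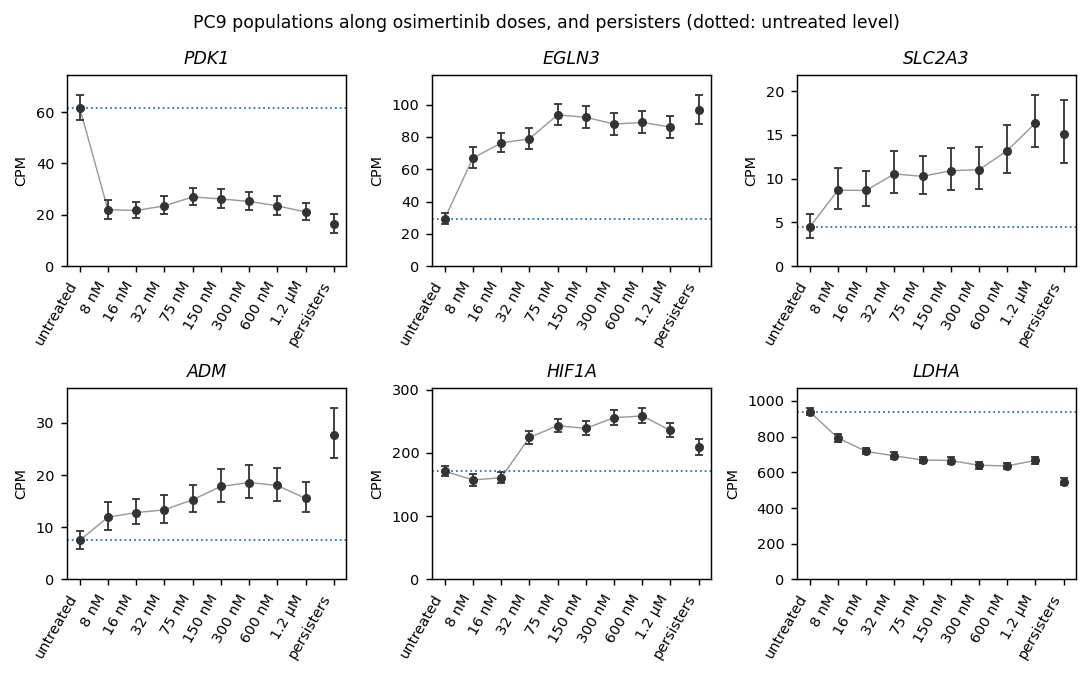
CPM (y axis, from 0) of 6 members in untreated and osimertinib-adapted PC9 cells by dose and in persisters (x axis), with exact 95% Poisson intervals and a dotted line at the untreated level. PDK1 lies below and EGLN3, SLC2A3 and ADM lie above the untreated level in all treated populations.

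Over all members in PC9, 1 of 29 measured was 2-fold higher and 2 were lower at 8 nM, beside 3.54% and 1.94% of all genes. These were EGLN3 on the higher side and HK2 and PDK1 on the lower side. With 5 CPM added to both levels, HK2 at 8 nM had a log2 ratio of -0.92, under 2-fold. At 16 nM 1 of 29 was higher and 2 were lower (4.53% and 2.15% of all genes), and at 32 nM 2 of 30 were higher and 1 lower (5.17% and 2.6%). From 75 to 600 nM 3 of 30 were higher and 1 was lower at each dose, beside 5.77% and 3.38% of all genes with 75 nM, 5.66% and 3.74% with 150 nM, 6.43% and 4.14% with 300 nM and 6.78% and 4.13% with 600 nM. At 1.2 µM 3 of 30 were higher (SLC2A3, ADM and EGLN3) and 1 was lower (PDK1), beside 6.55% and 4.24% of all genes. Thus 13 of the 14 measured enzyme genes were within 2-fold at 8 nM, with a median log2 ratio of -0.31 beside 0.00 for all genes, and 14 of 14 at 1.2 µM, with -0.33 beside 0.02. GAPDH had 3211 CPM in untreated cells, 3486 with 8 nM, 3332 with 16 nM, 3298 with 32 nM, 3352 with 75 nM, 3385 with 150 nM, 3193 with 300 nM, 3260 with 600 nM and 3284 with 1.2 µM. HK2 had 19.6 CPM in untreated cells, 8.05 with 8 nM, 8.77 with 16 nM, 12.8 with 32 nM, 11.7 with 75 nM, 13.6 with 150 nM, 15.0 with 300 nM, 10.0 with 600 nM and 10.9 with 1.2 µM.

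The enzyme genes were lower in PC9 persisters. All 14 measured enzyme genes had a lower CPM in persisters than in untreated cells, 3 of them past 2-fold, with a median log2 ratio of -0.74 beside -0.04 for all genes. ENO1 had 352 CPM in persisters, against 894 CPM in untreated cells, 2.54-fold lower (2.41 to 2.67). PGAM1 had 130 CPM in persisters, against 280 CPM in untreated cells, 2.15-fold lower (1.98 to 2.35). HK2 had 4.28 CPM in persisters, against 19.6 CPM in untreated cells, 4.58-fold lower (2.92 to 7.57). These 3 act at the first step of the path and at its steps between phosphoglycerate and phosphoenolpyruvate. In adapted cells ENO1 had 701 CPM with 8 nM, 632 with 16 nM, 661 with 32 nM, 703 with 75 nM, 724 with 150 nM, 695 with 300 nM, 680 with 600 nM and 687 with 1.2 µM, all nearer to untreated cells than to persisters. PGAM1 had 219 CPM with 8 nM, 200.5 with 16 nM, 216 with 32 nM, 217 with 75 nM, 222 with 150 nM, 211 with 300 nM, 201 with 600 nM and 222 with 1.2 µM.

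The remaining enzyme genes differed by less. GAPDH had 2164 CPM in persisters, against 3211 CPM in untreated cells (1.48-fold lower, 1.45 to 1.52). TPI1, triosephosphate isomerase, had 490 CPM in persisters, against 882 CPM in untreated cells (1.80-fold lower, 1.72 to 1.88). PKM had 611 CPM in persisters, against 895 CPM in untreated cells, and in adapted cells it had 822 CPM with 8 nM, 795 with 16 nM, 845 with 32 nM, 845 with 75 nM, 880 with 150 nM, 842 with 300 nM, 834 with 600 nM and 882 with 1.2 µM. PFKL and PFKM, subunits of phosphofructokinase, had 22.4 and 10.6 CPM in persisters, against 24.0 and 11.3 CPM in untreated cells. The enzyme genes together summed to 4297 CPM in persisters, against 6985 CPM in untreated cells, and to 6459 CPM at 1.2 µM. GAPDH alone made up 2164 CPM of the sum in persisters and 3211 CPM of that in untreated cells.

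Of all 30 measured members, 3 were 2-fold higher and 5 lower in persisters than in untreated cells, where 11.4% and 10.2% of all genes were. PDK3, another pyruvate dehydrogenase kinase, was among the lower ones with 7.13 CPM in persisters, against 15.0 CPM in untreated cells. In adapted cells PDK3 had 15.0 CPM with 8 nM, 13.1 with 16 nM, 14.5 with 32 nM, 11.7 with 75 nM, 13.7 with 150 nM, 9.95 with 300 nM, 10.6 with 600 nM and 11.1 with 1.2 µM. It was 2.10-fold lower in persisters (1.45 to 3.12), and a pseudocount of 1 CPM brought it within 2-fold (log2 ratio -0.97). The 3 measured regulators had a median log2 ratio of -1.07 in persisters, and the 6 measured hypoxia targets 0.02. Against cells adapted to the same 1.2 µM, 0 of 29 members were higher in persisters and 1 was lower, HK2 (2.56-fold, 1.57 to 4.35, or a log2 ratio of -0.78 with a pseudocount of 5 CPM), where 4.42% and 4.86% of all genes were. The 13 enzyme genes measured here had a median log2 ratio of -0.53 beside -0.06 for all genes, with 12 of 13 lower in persisters. ENO1 was 1.95-fold lower in persisters than at 1.2 µM (352 against 687 CPM, 1.85 to 2.06) and GAPDH 1.52-fold lower (2164 against 3284 CPM, 1.48 to 1.55).

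S-phase genes and the share of listed cells moved with the difference from untreated cells, and their part in it was not tested. The 12 S-phase genes summed to 339 CPM in persisters, against 1233 CPM in untreated cells, and 81.8% of persisters but 12.9% of untreated cells were in the authors' cell table. The median UMI count was 5776 in persisters, against 7968 in untreated cells. Among listed cells the enzyme sum was 3992 CPM in persisters, against 6484 CPM in untreated cells, and 12 of the 14 enzyme genes were lower with a median log2 ratio of -0.67. Among the other cells the sum was 5311 CPM in persisters, against 7045 CPM in untreated cells, again with 12 of 14 lower and a median of -0.45. The enzyme levels were thus lower within both groups of cells, and so were the S-phase sums. S-phase genes summed to 144 CPM in the 673 listed persisters, against 534 CPM in the 169 listed untreated cells. Among the other cells they summed to 984 CPM in 150 persisters, against 1317 CPM in 1146 untreated cells. The split therefore did not hold S phase equal. Cells adapted to 1.2 µM differed from persisters in the same way, with an S-phase sum of 906 CPM and 36.8% listed cells. Against them, 12 of 13 enzyme genes were lower in listed persisters (median log2 ratio -0.63) and 10 of 13 in the other persisters (-0.28). At 1.2 µM S-phase sums were 262 CPM in listed and 1194 CPM in the other cells, so S phase was unequal there too. Its part in that difference was not tested.

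**Figure D5:**
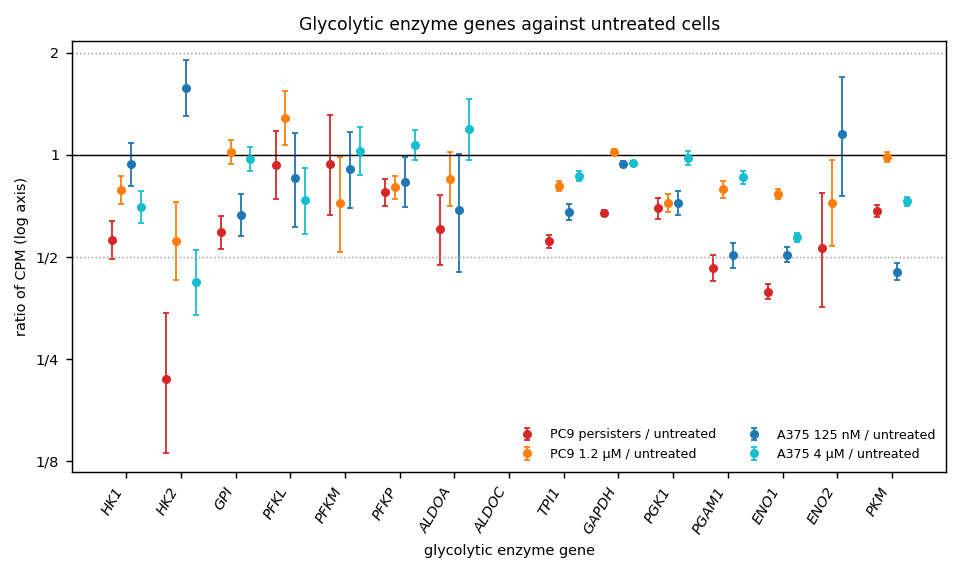
Ratio of CPM to untreated cells (y axis, log scale) of the 15 glycolytic enzyme genes (x axis) in PC9 persisters, PC9 at 1.2 µM and A375 at 125 nM and 4 µM, with 95% counting intervals. Pairs under the minimum level are left out. Persister points lie below 1 for all 14 enzyme genes shown, and ENO1 is 2.54-fold lower.

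Among high-dose PC9 cells the listed cells again held clusters of unlike levels, given as descriptions. At 1.2 µM ENO1 had 758 CPM in the 153 cells of cluster 3 and 404 CPM in the 226 cells of cluster 4. LDHA had 918 and 540 CPM in these clusters, and PGAM1 had 211 and 169 CPM, while GAPDH had 3236 and 3251 CPM. EGLN3 had 81.1 CPM in cluster 3 and 117 CPM in cluster 4. The same order of ENO1 and LDHA was present at 600 nM, with 750 and 880 CPM in cluster 3 and 427 and 507 CPM in cluster 4. ENO1 had 268 CPM in the 599 persisters of cluster 1.

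Other glycolysis genes, from a list of 28, gave 3 of 11 measured higher and 1 lower in persisters than in untreated cells (11.4% and 10.2% of all genes), and 2 of 11 higher and 0 lower at 1.2 µM (6.55% and 4.24%). BPGM, which diverts a glycolytic intermediate into 2,3-bisphosphoglycerate, had 92.1 CPM in persisters, against 13.0 CPM in untreated cells, and 27.0 CPM at 1.2 µM. SLC16A7, the monocarboxylate transporter MCT2, had 41.8 CPM in persisters, against 8.72 CPM in untreated cells, and 20.5 CPM at 1.2 µM. PGAM5, a mitochondrial phosphatase despite its name, had 8.96 CPM in persisters, against 19.3 CPM in untreated cells.

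Other HIF targets gave 7 of 30 measured higher and 4 lower in persisters than in untreated cells, beside 11.4% and 10.2% of all genes, with a median log2 ratio of 0.06. At 1.2 µM 7 of 30 were higher and 1 was lower, beside 6.55% and 4.24% of all genes, with a median of -0.03. IGFBP3, a binding protein for insulin-like growth factors, had 2477 CPM in persisters, against 432 CPM in untreated cells, and 1167 CPM at 1.2 µM. VLDLR, a lipoprotein receptor, had 19.2 CPM in persisters, against 3.22 CPM in untreated cells. STC2 had 5.30 CPM in persisters and 7.30 CPM at 1.2 µM, against 22.5 CPM in untreated cells, and AK4 had 9.78 CPM in persisters, against 35.8 CPM in untreated cells. PLOD2, a collagen lysyl hydroxylase, had 287 CPM at 1.2 µM, against 68.1 CPM in untreated cells. CITED2 had 53.8 CPM in persisters and 44.9 CPM at 1.2 µM, against 6.54 CPM in untreated cells.

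Across the lines in untreated cells, 5 of 32 measured members were 2-fold higher in A375 than in PC9 and 6 were lower, where 21.5% and 14.1% of all genes were. SLC2A3 had 41.1 CPM in A375 and 4.45 CPM in PC9, 9.23-fold higher (6.88 to 12.6). PFKFB4 had 45.5 and 7.49 CPM, and ANKRD37 had 20.9 and 8.15 CPM. EGLN3 had 2.73 CPM in A375 and 29.4 CPM in PC9, 10.8-fold lower (8.14 to 14.4), SLC16A3 had 4.50 and 34.1 CPM, and PDK1 had 14.3 and 61.7 CPM. PFKP, the platelet-type phosphofructokinase, had 64.2 CPM in A375 and 169 CPM in PC9, and PFKM, the muscle type, had 25.4 and 11.3 CPM. BNIP3, ALDOA and SLC2A1 made up the rest of the 11.

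Between cells outside and inside the authors' cell table, 4 of 31 measured members were higher outside in every A375 population, and in PC9 7 of 30 were higher and 3 lower outside in every population. Cells outside the table, with S-phase sums of 487 to 1194 CPM in A375, had more TPI1, PGAM1, ENO1 and PKM than listed cells, with S-phase sums of 123 to 255 CPM, in all 9 populations, as had 13.4% of all genes. In PC9, with S-phase sums of 984 to 1317 CPM outside and 144 to 534 CPM inside, PFKL, TPI1, GAPDH, PGAM1, ENO1, ENO2 and LDHB were higher outside the table in all 10 populations, as were 18.1% of all genes, and SLC2A1, SLC16A1 and NDRG1 were lower, as were 15.6% of all genes. ENO1 outside the table was 1.05-fold to 1.44-fold of its level inside in A375 and 1.13-fold to 2.00-fold in PC9. NDRG1 in PC9 was 1.57-fold to 3.84-fold lower outside the table.

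PGK1, phosphoglycerate kinase, had 216 to 307 CPM in A375 and 211 to 304 CPM in PC9, and GPI, glucose-6-phosphate isomerase, 70.4 to 106 CPM and 82.9 to 143 CPM. CA9, a carbonic anhydrase that HIF-1 induces strongly in many tumours, had 0.182 CPM in untreated A375 cells and 0.342 to 4.08 CPM at the doses, from 4 UMIs in untreated cells and at most 23 at a dose. In PC9 CA9 had at most 0.948 CPM, and no UMI at 150 nM or in persisters, where a count of 0 allows up to 0.399 and 0.611 CPM (3 counts). ALDOC, the brain aldolase, had 5.44 to 12.3 CPM in A375 and at most 4.18 CPM in PC9, and ENO2, the neuronal enolase, 4.32 to 10.2 CPM and 7.13 to 13.5 CPM. In A375 PDK1 had 9.27 to 15.7 CPM and PDK3 10.2 to 15.3 CPM, while PFKL had 13.1 to 19.4 CPM. In PC9 PFKFB3 had 18.1 to 30.4 CPM with its highest level in persisters, NDRG1 11.6 to 22.4 CPM, VEGFA 14.4 to 25.1 CPM, P4HA1 43.6 to 63.3 CPM and BNIP3 40.6 to 57.5 CPM. ALDOA, aldolase, had 9.87 to 18.2 CPM in A375 and 18.3 to 30.4 CPM in PC9, and it overlaps AC093512.2 in GENCODE v29, so its counts are uncertain. GAPDH, PGK1, LDHA, LDHB, ENO1, TPI1, PKM and PGAM1 are known to have closely similar copies, many of them pseudogenes, and PGK1 overlaps ATP7A, so their levels may lack reads that could not be assigned. The counts came from the 3′ ends of transcripts, which may be counted unequally between genes. Levels, shares within a pair of genes and sums over genes are therefore meant for comparison between populations, not as relative amounts of different genes.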

How the data were processed

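The deposited tables hold UMI counts per gene and cell, made by the authors with Cell Ranger 7.0.0 on GRCh38, per the submitters' processing notes. Libraries were 10x 3′ ones with CellPlex tags, per the labels' protocols. The authors' deposited cell tables give each listed cell's count total, percent of mitochondrial UMIs and cluster; how listed cells were chosen is not given in the sources used here. A population is the suffix of the cell name, and T05 was matched to the label T0500. The 2 A375 sequencing runs could not be told apart.

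UMIs of all cells were summed per population and divided by its total to give CPM. No cells were removed and no doublet caller was run. Ratios of CPM carry exact conditional binomial 95% intervals, levels exact Poisson ones, and a gene without UMIs a floor of 3 counts. With 1 culture per population there is no test and no p-value. A member differed at 2-fold with 10 CPM and 20 UMIs in the higher population. Per-population values are given for members past 2-fold against untreated cells and for GAPDH, LDHA, SLC2A1, PKM and HIF1A. Of other gene lists, at most the 3 highest and 3 lowest ratios past 2-fold are named in a main comparison (lowest and top dose against untreated cells, persisters against untreated cells and against 1.2 µM). KDM3A, MXI1 and BHLHE40 lie outside these rules and are marked. Some other values also lie outside them, such as those of PYGB over all A375 doses, AKR1B1 in PC9, and VEGFA and P4HA1 in A375. The members and lists were chosen with earlier results of these data known. Positions and overlaps came from GENCODE v29 and promoters from RefSeq (GRCh38.p14). The ratios were tested on simulated data. Tools were Python 3.11.15, scipy 1.17.1, numpy 2.4.6, pandas 2.3.3, matplotlib 3.10.9 and, for TMM factors alone, edgeR 4.0.16 in R 4.3.3. The 11 alternatives changed the pseudocount, minimum level, cells used, scaling or averaging.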

Additional observations from a re-analysis of the deposited data

How the results depend on the processing

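Of 20 differences past 2-fold in the 6 main comparisons, 14 had a ratio still past 2-fold with a pseudocount of 5 CPM. Under each of the other 10 alternatives 18 to 20 did, and none changed direction. A changed minimum level cannot alter a ratio, so all 20 ratios stayed by construction under those settings, whether or not the member was still counted. The filter on mitochondrial UMIs removed no PC9 cell, so it could not alter the PC9 ratios. PFKFB3 at 4 µM had a log2 ratio of -0.94 with TMM factors and -0.90 with median-of-ratios factors, ADM in PC9 at 1.2 µM 0.75 in listed cells, 0.97 with TMM factors, 0.98 with median-of-ratios factors and 0.96 and 0.72 with pseudocounts of 1 and 5 CPM, EGLN3 at 8 nM 0.91 in listed cells, and PDK3 in persisters -0.97 with a pseudocount of 1 CPM. With a pseudocount of 5 CPM HK2 had log2 ratios of -0.98 in A375 at 4 µM, -0.92 in PC9 at 8 nM and -0.78 in persisters against 1.2 µM. That setting gave -0.89 for PFKFB3 at 4 µM and -0.72 for PDK3 in persisters against untreated cells. The cause was not tested.

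Counts of members moved by more than 1.5 times as follows. At 30 nM the higher count of 0 was 2 without a minimum and 1 with totals lacking mitochondrial and ribosomal protein genes. The lower count of 0 was 1 with each cell's CPM averaged, in listed cells, or without cells over 2 times the median UMIs. At 4 µM the higher count of 1 was 0 with a minimum of 50 CPM, 3 without a minimum and 2 with those totals. The lower count of 3 was 0 with 50 CPM and 1 with a pseudocount of 5. In PC9 at 8 nM the higher count of 1 was 0 in listed cells, and the lower count of 2 was 1 with 50 CPM or a pseudocount of 5. At 1.2 µM the higher count of 3 was 1 with 50 CPM, and the lower count of 1 was 3 without a minimum. For persisters against untreated cells the higher count of 3 was 1 and the lower count of 5 was 3 with 50 CPM. Against 1.2 µM the higher count of 0 was 1 in listed cells, and the lower count of 1 was 2 with cell averages or no minimum and 0 with 50 CPM or a pseudocount of 5. A higher minimum tests fewer genes by construction.

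The 14 enzyme genes measured in persisters against untreated cells were all lower under 9 of the 11 alternatives. In listed cells 12 were lower, and 13 without cells over 2 times the median UMIs. Some of the 9 could not alter this count. A changed minimum leaves each ratio as it was, and no PC9 cell had 20% or more mitochondrial UMIs. No paired analysis was possible because the groups compared are single cultures within 1 pool and share no replicate numbers. Members under 10 CPM or 20 UMIs in both populations, such as CA9, were not counted, whatever their ratio.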

Other observations

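In A375 3 genes of glycolytic side branches differed by more than 2-fold at 4 µM, AKR1B1 higher and PYGB and GPD2 lower. PYGB, the brain-type glycogen phosphorylase, had 219 CPM in untreated A375 cells, 84.6 with 30 nM, 245 with 60 nM, 360 with 125 nM, 155 with 250 nM, 57.7 with 500 nM, 56.3 with 1 µM, 51.7 with 2 µM and 55.1 with 4 µM. Its highest level lay at 125 nM, and from 500 nM on it was below untreated cells. AKR1B1, the aldose reductase that turns glucose into sorbitol, had 331 CPM at 4 µM, against 110.5 CPM in untreated A375 cells. In PC9 it had 1454 CPM in persisters, against 855 CPM in untreated cells, and 571 CPM at 1.2 µM. At 4 µM 1 of 17 measured genes of this list was 2-fold higher and 2 were lower in A375, near the shares of all genes (5.97% and 9.45%). In persisters 0 of 16 were higher and 1 was lower (11.4% and 10.2% of all genes), PSAT1 of serine synthesis, with 24.4 CPM in persisters, against 67.7 CPM in untreated cells.

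The pentose phosphate pathway, which makes NADPH from glucose, had 0 of 7 genes past 2-fold in any of the 6 main comparisons. In persisters against untreated PC9 cells the list had a median log2 ratio of 0.24, beside -0.74 for the enzyme genes of glycolysis and -0.04 for all genes. Genes of pyruvate entry into mitochondria had 2 of 11 measured higher and 0 lower in persisters, beside 11.4% and 10.2% of all genes. These were PDK2, with 13.0 CPM in persisters, against 6.25 CPM in untreated cells, and the phosphatase PDP2, with 12.2 against 5.88 CPM.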
